A study of Mus musculus with 6 samples.

Results

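The Mup locus is the stretch of mouse chromosome 4 that holds the genes of the major urinary proteins. Its members were taken by position alone, as every gene in the authors' deposited table that starts inside a window of 2.3 Mb on chromosome 4 of the build GRCm38, from Slc46a2 (start 59905126) to Zfp37 (start 62189540). This rule found 28 of the 32597 genes in the table. They are 21 Mup genes, Mup1 to Mup21, all typed protein-coding, 5 predicted gene models and 2 other genes, Slc46a2 and Zfp37. The values come from RNA sequencing of whole liver of male, wild-type C57BL/6 mice at 2 ages. The young group is given as 3 weeks, as 3 to 4 weeks or as 1 month in different labels, and the adult group as 6 months. Each age had 3 libraries, and each library was a pool of RNA from 3 mice, sequenced to about 30000000 reads per the labels. The table gives 1 combined FPKM (a read count scaled for transcript length and for library size) per gene and age, so no value per library can be shown, and the authors' q-value (their p-value adjusted over the table) is the only measure of replicate error, which here is the spread between pools and not between single mice.

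Major urinary proteins are small secreted carriers of the lipocalin family. In adult male mice the liver releases them into the blood, the kidney passes them into the urine, and there they hold volatile pheromones in a central pocket and let them out slowly from scent marks. Their liver mRNA is known to depend on growth hormone, testosterone, thyroid hormone and glucocorticoids, and the genes arose by repeated duplication, so that many copies are almost the same in sequence.

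The copies fall into a block of near-identical genes and 6 genes that stand apart. Coding sequences rebuilt from GENCODE M21, an annotation of GRCm38, were compared pair by pair. A group of 15 genes (Mup1, Mup2 and Mup7 to Mup19) was linked at 95% identity or more, and the median over all 210 pairs of the 21 genes was 96.6%, with a range of 83.1% to 99.8%. Mup3, Mup4, Mup5, Mup6, Mup20 and Mup21 joined no other gene at that level. The closest pair among these 6 was Mup3 and Mup21, at 94.9%. Mup4 and Mup5, which are known chiefly from secretory glands of the head, were 92.2% identical.

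**Figure D1:**
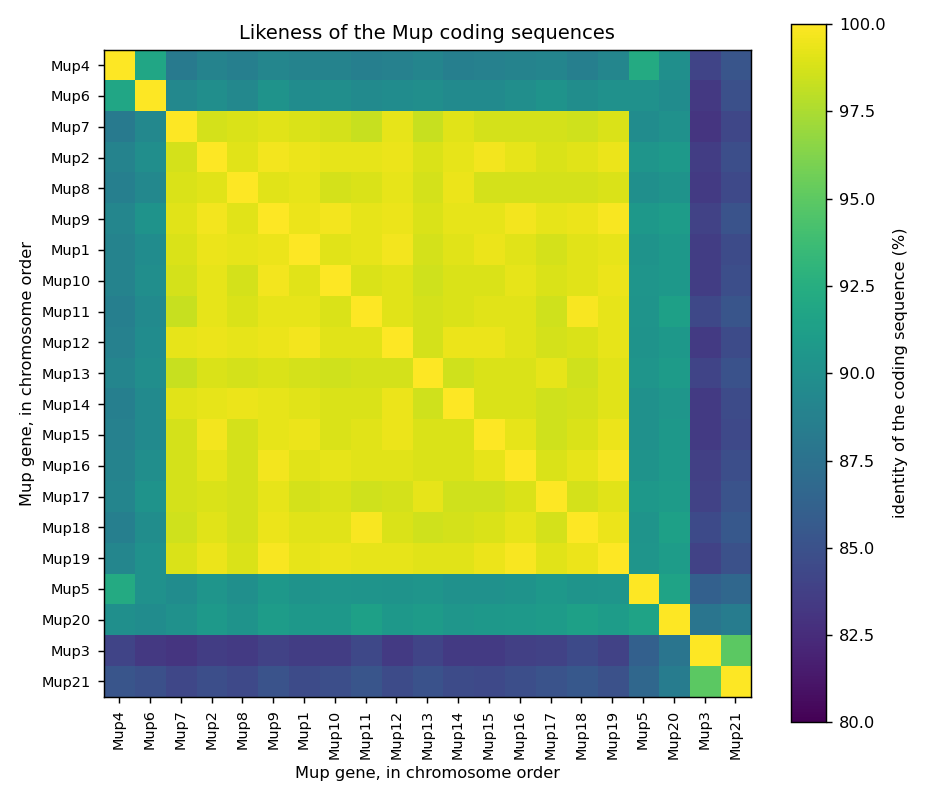
Identity of the coding sequences of the 21 Mup genes in percent, from GENCODE M21 transcripts, in chromosome order on both axes (colour scale from 80 to 100). The square of 15 genes from Mup7 to Mup19 stands at high identity, and Mup3 and Mup21 differ most from the rest.

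The sequences upstream of the gene starts carry the same division in the 13 genes where they could be compared. Promoter windows for 14 of the 21 Mup genes were found in RefSeq on GRCm38.p6, and the others are Mup1, Mup5, Mup8, Mup12, Mup13, Mup16 and Mup20. The 250 bases before the annotated start of 6 of them are printed, all from the minus strand, 5′ to 3′, because the ratios of adult to young level differed widely among them. Mup17, Mup10 and Mup2 are near-identical copies, and Mup4, Mup3 and Mup21 stand apart. They lie at chr4:61595833-61596082 (Mup17), chr4:60582156-60582405 (Mup10), chr4:60139857-60140106 (Mup2), chr4:59960668-59960917 (Mup4), chr4:62087318-62087567 (Mup3) and chr4:62150842-62151091 (Mup21). The first run of capitals is an A-rich tract between the words gacccata and ctgaa, and the second is the TATA-box word TATATAA.
Mup17: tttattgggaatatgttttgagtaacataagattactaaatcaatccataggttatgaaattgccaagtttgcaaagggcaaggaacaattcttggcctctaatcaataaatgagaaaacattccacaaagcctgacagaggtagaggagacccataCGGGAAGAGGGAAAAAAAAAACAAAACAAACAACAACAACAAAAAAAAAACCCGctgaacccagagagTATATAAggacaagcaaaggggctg
Mup10: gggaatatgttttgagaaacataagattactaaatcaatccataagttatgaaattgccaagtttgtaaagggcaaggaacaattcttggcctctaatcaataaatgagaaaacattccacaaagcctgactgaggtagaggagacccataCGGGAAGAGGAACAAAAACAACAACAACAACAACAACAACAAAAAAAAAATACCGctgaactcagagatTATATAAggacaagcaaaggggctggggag
Mup2: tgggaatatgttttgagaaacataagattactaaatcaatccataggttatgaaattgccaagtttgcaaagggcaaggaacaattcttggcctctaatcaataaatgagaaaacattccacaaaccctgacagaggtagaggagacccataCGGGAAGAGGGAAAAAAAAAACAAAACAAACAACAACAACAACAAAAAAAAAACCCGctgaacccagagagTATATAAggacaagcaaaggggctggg
Mup4: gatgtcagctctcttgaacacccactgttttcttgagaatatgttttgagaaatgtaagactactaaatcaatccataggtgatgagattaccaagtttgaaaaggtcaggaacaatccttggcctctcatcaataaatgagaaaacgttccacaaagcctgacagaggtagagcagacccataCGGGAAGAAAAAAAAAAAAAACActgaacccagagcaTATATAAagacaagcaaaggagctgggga
Mup3: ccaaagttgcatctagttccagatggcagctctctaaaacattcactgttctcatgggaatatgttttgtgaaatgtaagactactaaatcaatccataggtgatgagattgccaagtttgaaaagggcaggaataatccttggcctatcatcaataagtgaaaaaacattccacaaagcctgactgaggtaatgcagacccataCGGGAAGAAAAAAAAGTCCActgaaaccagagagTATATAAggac
Mup21: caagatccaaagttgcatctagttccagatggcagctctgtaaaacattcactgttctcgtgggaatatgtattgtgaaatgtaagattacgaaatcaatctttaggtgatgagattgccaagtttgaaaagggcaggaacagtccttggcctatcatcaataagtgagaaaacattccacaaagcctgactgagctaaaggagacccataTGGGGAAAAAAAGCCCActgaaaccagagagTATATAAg

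The tract was 54 bases long in Mup17, 55 in Mup10 and 57 in Mup2, and 23 in Mup4, 20 in Mup3 and 17 in Mup21. Over the 13 promoters that held both bounding words, the 9 of the near-identical block had tracts of 45 to 57 bases and the 4 others (Mup3, Mup4, Mup6 and Mup21) of 17 to 23 bases. TATATAA stood on the gene's strand in 13 of the 14 windows of 300 bases (250 before the start and 50 after it), against 2.198% of the 32851 RefSeq mouse promoters of that length. It began 11 bases before the annotated start in Mup3, 8 in Mup21 and 2 in Mup11, and after that start in Mup14. In the others that held it, the distance before the start was 25 to 31 bases. The annotated starts thus do not all stand at the same place relative to this word. The window of Mup7 held neither this word nor the tract with both bounding words. The 250 bases before its annotated start end in aatgagaaaaca, which lies upstream of the tract in Mup17, Mup10 and Mup2. The Mup7 window may thus stop short of both, so their absence from that gene is not shown. In Mup10 the word TATATAA was also read on the other strand over the same bases. The word ATCAAT, searched on both strands, was found at 2 places in each of the 14 windows and in 7.54% of all promoters. TTCNNNGAA, the core word of STAT sites, reads the same on both strands. It was found in none of the 14 and in 8.30% of all promoters. With so low a share over all promoters, and with near-copies among the 14, this absence says little. Sequence outside these windows was not searched. These matches are of letters only.

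Of the 28 genes, 25 were tested by the authors, and 22 of these also reached 1 FPKM at 1 age or more and are called tested below. Genes are called risen or fallen below if their q-value was under 0.05. In the window 19 genes were risen in adults, 0 fallen and 3 not called, beside 3.99% risen and 3.48% fallen among all 11741 tested genes of the table. At an unadjusted p under 0.05 in the authors' Cuffdiff table, 20 of the 22 were higher in adult liver and 0 lower. Of the 21 Mup genes, 19 were tested, 17 were risen and 0 fallen. Mup2 and Mup3 were not called, and Mup15 and Mup19 were not tested. In bulk tissue, a change in the number of cells that express a gene and a change in its RNA per cell cannot be told apart. The median log2 fold, taken throughout as log2((adult FPKM + 1)/(young FPKM + 1)), was 2.04 over the 19 tested Mup genes and 0.0033 over all tested genes. The ratio of adult to young FPKM was 2 or more for 16 of the 19 tested Mup genes and for 3.11% of all tested genes. It was 8 or more for 4 of the 19 and for 0.417% of all.

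**Figure D2:**
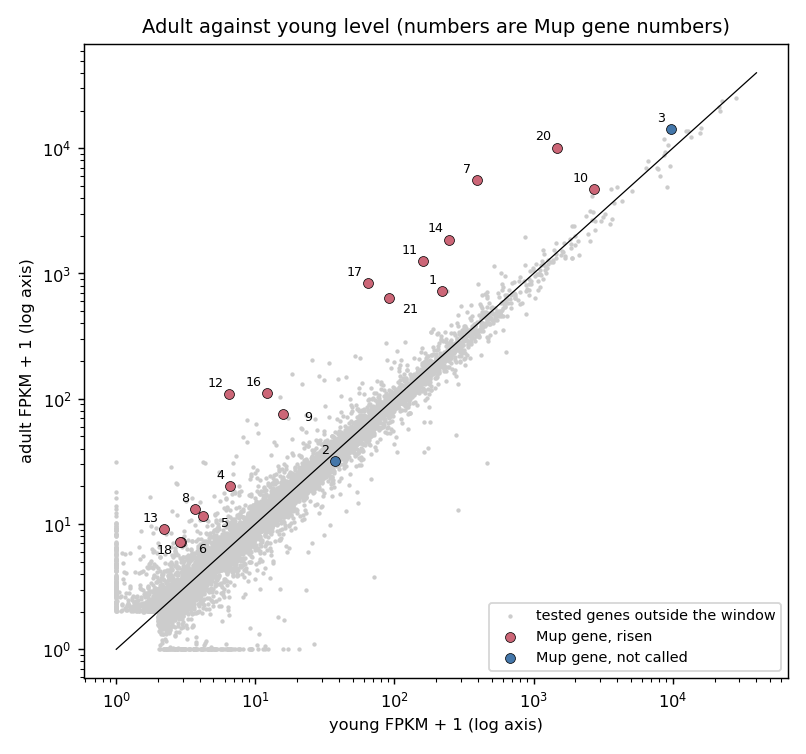
Adult against young level, as FPKM + 1 on log axes, for the 19 tested Mup genes (coloured, labelled by number) and the tested genes outside the window (grey). The line marks equal levels. 17 Mup genes are risen, Mup3 lies a little above the line, and Mup2 lies a little under it.

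Mup3 was the Mup gene with the highest level at both ages. The gene (ENSMUSG00000066154) lies at chr4:62083476-62087342 on the minus strand. It was at 9647 FPKM in young liver and 14110 FPKM in adult liver, a ratio of 1.46 (log2 fold 0.55). The authors' deposited table gave it a q-value of 0.320, so this difference was not called. Among all genes of the table, Mup3 ranked 10 by level in young and 6 in adult liver. Mup21, its nearest relative, was at 90.4 FPKM in young liver and 635 in adult liver, a ratio of 7.02. The authors' deposited table called Mup21 risen with a q-value of 0.00189. The stretch of 120 bases before the TATA word, with that word, was 89.2% identical between Mup3 and Mup21, and 55.8% between Mup2 and Mup21. These stretches have a fixed length, were aligned end to end and include the A-rich tract. It is 57 bases long in Mup2 and 17 in Mup21, and this difference in length lowers the second value. The difference between the ratios of Mup3 and Mup21 was not tested, since there is 1 value per gene and age.

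Mup20 encodes darcin, a male urinary protein that itself acts as a pheromone on female mice. The gene (ENSMUSG00000078672) lies at chr4:62050234-62054158 on the minus strand. Its level was 1464 FPKM in young liver and 10104 FPKM in adult liver, a ratio of 6.90. It moved from rank 59 to rank 13 among all genes, and the authors' deposited table gave it a q-value of 0.00189. Mup7 (ENSMUSG00000073842, chr4:60066469-60070475) was at 390 FPKM in young liver and 5545 in adult liver, a ratio of 14.2, and moved from rank 243 to rank 22. Mup10 was the second highest Mup gene in young liver. It was at 2698 FPKM in young liver and 4724 FPKM in adult liver, and with a ratio of 1.75 it had the smallest change among the 17 risen Mup genes. The authors' deposited table gave Mup10 a q-value of 0.00350. The smallest q-value in the authors' deposited table, 0.00189, belonged to the other 16 risen Mup genes and was shared by 554 genes, so these q-values do not rank them.

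A middle tier of 5 Mup genes started between 63.4 and 247 FPKM, of which Mup21, outside the block, is described above. Mup14 was at 247 FPKM in young liver and 1864 in adult liver, a ratio of 7.56. Mup11 went from 159 to 1257 FPKM, a ratio of 7.89. These ratios were nearly equal. Mup1 went from 219 to 726 FPKM, a ratio of 3.31. Mup17 went from 63.4 to 840 FPKM, a ratio of 13.2. These other 4 are risen and belong to the near-identical block, and Mup17, the lowest of them in young liver, was above Mup1 in adult liver.

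The largest ratio in the locus was that of Mup12 (ENSMUSG00000094793, chr4:60737383-60741326), which was at 5.45 FPKM in young liver and 108 FPKM in adult liver, a ratio of 19.8 (log2 fold 4.08). Mup16 went from 11.1 to 110 FPKM, a ratio of 9.88, and Mup9 from 14.8 to 75.1 FPKM, a ratio of 5.08. All 3 are risen, and Mup12 and Mup16 ended at nearly the same adult level. Mup13 was at 1.21 and 8.08 FPKM, Mup8 at 2.68 and 12.2 FPKM and Mup18 at 1.85 and 6.24 FPKM in young liver and adult liver. These 3 copies of the block are also risen, with ratios of 6.66, 4.55 and 3.37, yet remained the lowest of its risen genes.

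Mup4, Mup5 and Mup6, the low genes outside the block, changed by nearly the same ratio. Mup4 was at 5.57 FPKM in young liver and 19.01 in adult liver. Mup5 was at 3.22 and 10.7 FPKM. Mup6, the only Mup gene on the plus strand, was at 1.94 and 6.199 FPKM. Their ratios were 3.41, 3.30 and 3.20, and all 3 are risen. At each age these 3 genes were far below Mup3 and Mup20 in liver.

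Mup2 was the exception among the tested copies of the block. The gene (ENSMUSG00000078688) lies at chr4:60135932-60154289. It was at 36.4 FPKM in young liver and 30.9 FPKM in adult liver (log2 fold -0.23), and the authors' deposited table gave it a q-value of 0.689. Its coding sequence was 99.6% identical to that of Mup9, which is risen with a ratio of 5.08, and the stretch before the TATA word was 94.6% identical between these 2 genes. Mup15 and Mup19 were listed at 0 FPKM in young liver and at 0.0187 and 0.0272 FPKM in adult liver and were not tested. A value of 0 in this table can be a failed estimate, because Alb, the gene of albumin, is also listed at 0 at both ages. The authors' status was LOWDATA for Alb but NOTEST for Mup15 and Mup19, so Alb does not show that their values failed.

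Reads from sequence that copies share cannot be given to 1 gene by sequence alone. For each Mup gene, 1 transcript in GENCODE M21, the same as for the coding sequence, was cut into all words of 75 bases. A word was called unique when it occurred in no transcript of another gene on either strand. Other transcripts of the same gene were not cut into words. The sources used here do not state the read length. Mup2, Mup15 and Mup19 had 0% unique words, and they are also the gene with the lower adult value and the 2 genes listed at about 0. The other 12 genes of the block had 5.41% (Mup14) to 31.3% (Mup17) unique words. Mup20 had 56.4%, Mup21 89.7%, Mup3 93.2%, Mup5 95.4%, Mup4 99.6% and Mup6 100%. Over the 19 tested Mup genes Spearman's rho between the unique share and the log2 fold was -0.11, given as a description of genes that share sequence and libraries. The part of shared reads in the values of single copies was not tested.

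**Figure D3:**
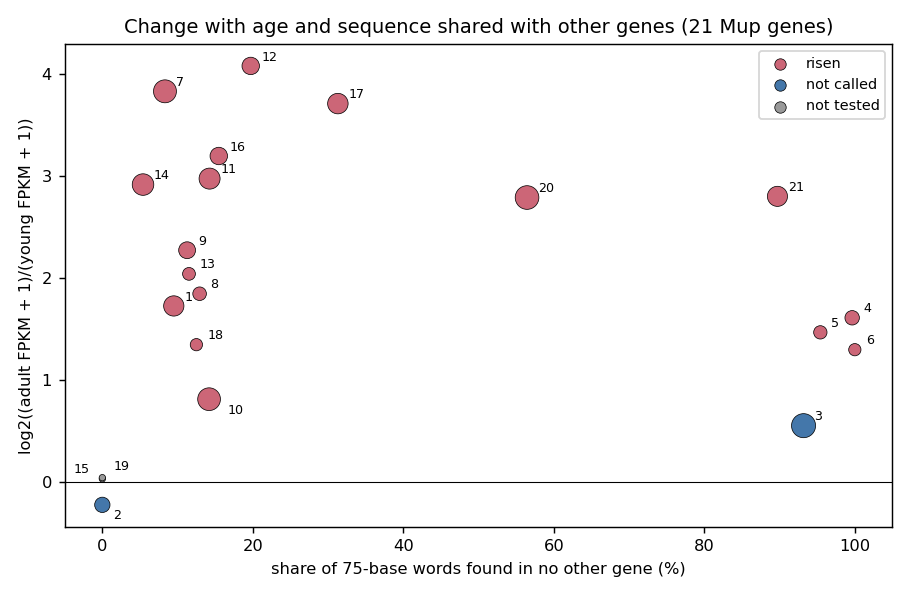
Share of 75-base words found in no other gene, in percent, against the log2 fold from young to adult, for the 21 Mup genes (labelled by number). Colour gives the call and point area grows with adult FPKM. Mup2, Mup15 and Mup19 sit at 0% unique words and close to or under a log2 fold of 0.

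The 2 sequence classes both had higher sums in adult liver. The 15 genes of the block summed to 3849 FPKM in young liver and 15305 FPKM in adult liver, a ratio of 3.98, and 12 of the 13 tested were risen. The sources used here do not state how the authors' software divided reads among these copies, and the part of that division in the sum was not tested. The 6 genes with over 50% unique words summed to 11212 and 24884 FPKM, a ratio of 2.22, and 5 of the 6 were risen, all but Mup3. With words of 50 bases in place of 75, Mup20 had 49.5% unique words and fell under that limit. By the limit of 95% coding identity it stays outside the block. These classes made up 45.6% and 54.4% of the increase in summed Mup FPKM.

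The sum over the 21 Mup genes was 15061 FPKM in young liver and 40189 FPKM in adult liver, a ratio of 2.67. It was 1.98% of all FPKM in the table in young and 5.25% in adult liver. Without Mup3 the sum was 5415 and 26079 FPKM, a ratio of 4.82. Mup20 alone made up 34.4% of the increase, Mup7 20.5%, Mup3 17.8% and Mup10 8.07%, which comes to 80.7% for these 4 genes.

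The make-up of the sum changed as well. Mup3 held 64.0% of it in young and 35.1% in adult liver, and Mup10 held 17.9% and 11.8%. Mup20 held 9.72% in young and 25.1% in adult liver, Mup7 2.59% and 13.8%, and Mup14 1.64% and 4.64%. The effective number of Mup genes, taken as the exponential of the Shannon entropy of these shares, was 3.27 in young and 5.88 in adult liver, so the adult sum was spread more evenly over the genes as listed. These shares, and those of the increase above, rest on the values of single copies. The part that the division of shared reads among the near-identical copies had in them was not tested.

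**Figure D4:**
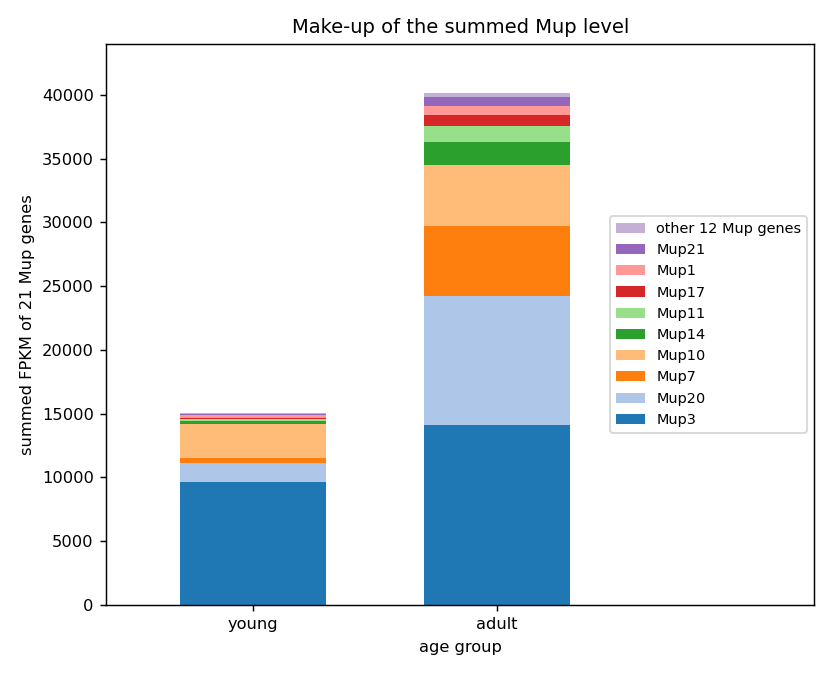
Summed FPKM of the 21 Mup genes in young and adult liver, stacked by gene, with the 9 genes highest in adults named and the other 12 as 1 segment. Each bar is 1 combined value per age with no error. The sum is 15061 in young and 40189 in adult liver, and the segments of Mup20 and Mup7 grow most.

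The order of the genes was largely kept. Spearman's rho between young and adult FPKM over the 19 tested Mup genes was 0.956, and between young FPKM and log2 fold it was 0.07, both as descriptions. The 7 tested genes under 10 FPKM in young liver had a median log2 fold of 1.61, the 5 between 10 and 100 FPKM of 2.80, the 4 between 100 and 1000 FPKM of 2.94, and the 3 over 1000 FPKM of 0.81. The pseudocount lowers the fold of the first of these classes. From the highest to the lowest tested gene, levels spanned a ratio of 7952 in young and 2276 in adult liver.

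By position, the Mup genes spread over 2191 kb between the first start (Mup4) and the last (Mup21), with a median of 79.9 kb between neighbouring starts. Outer genes were those starting within 250 kb of either end. At the left end these were Mup4, Mup6, Mup7 and Mup2, which summed to 434 FPKM in young liver and 5601 FPKM in adult liver, nearly all of it Mup7. At the right end they were Mup20, Mup3 and Mup21, which summed to 11201 and 24848 FPKM. Of the 7 outer genes 5 were risen, with a median log2 fold of 1.61. All 12 tested genes among the 14 inner ones were risen, with a median log2 fold of 2.15, and the inner genes summed to 3426 and 9740 FPKM. Risen genes thus lay along the whole locus, and no difference between outer and inner genes was tested because neighbours share sequence. The sequence classes and the position overlap, with a median coding identity of 98.9% between inner genes and 88.4% between outer genes.

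**Figure D5:**
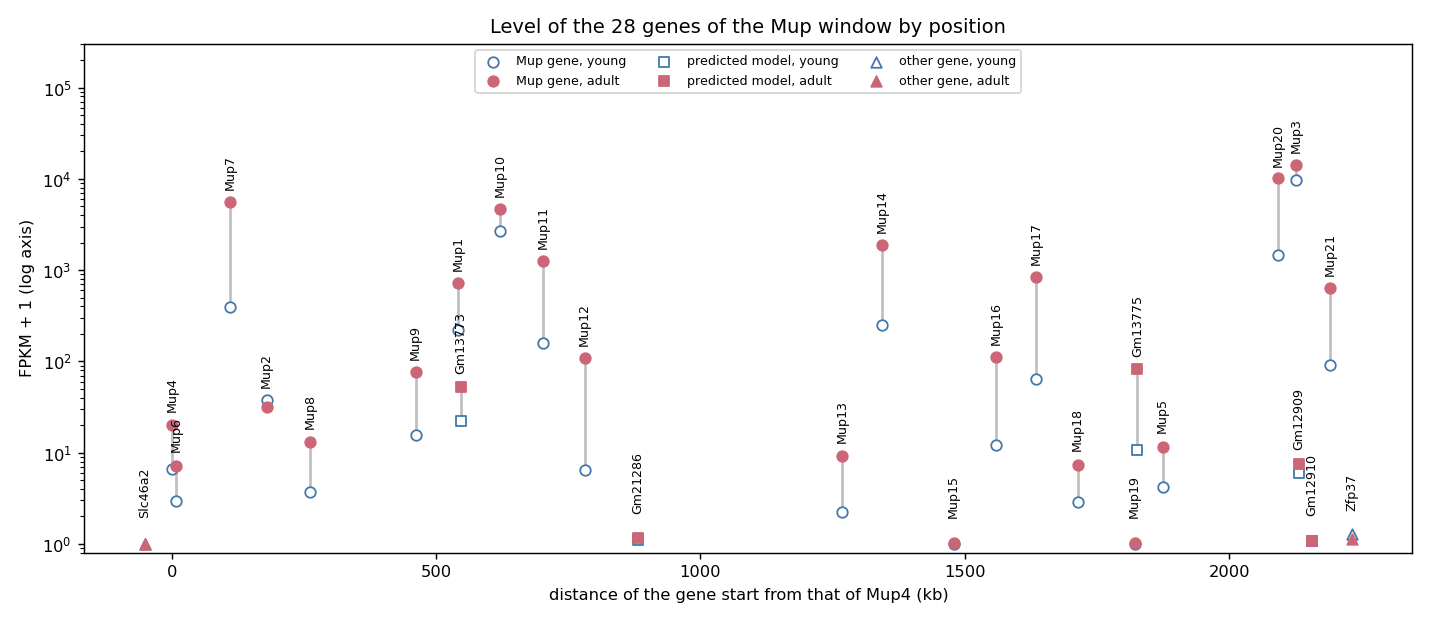
FPKM + 1 on a log axis for the 28 genes of the window against the distance of the gene start from that of Mup4 in kb. Open blue marks are young and filled red marks adult liver, joined by a line, with circles for Mup genes, squares for predicted models and triangles for other genes. The highest levels are those of Mup3 and Mup20 near the right end.

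By gene type, the 5 predicted models were low beside the Mup genes, and 2 of the 3 tested were risen. Gm13775, typed processed transcript, was at 9.79 FPKM in young liver and 81.3 FPKM in adult liver, a ratio of 8.30. Gm13773, of the same type, was at 20.99 and 52.01 FPKM, a ratio of 2.48. The authors' deposited table lists both with a q-value of 0.00189. Each runs on the plus strand and starts shortly after the end coordinate of a minus-strand Mup gene, that is, upstream of it. Gm13773 lies 880 bases from Mup1 and Gm13775 lies 853 bases from Mup19. Gm13775 was thus measured at 81.3 FPKM in adult liver beside a Mup gene listed at 0.0272 FPKM. In GENCODE M21 the pseudogene Mup-ps6 lies inside the span of Gm13773, and Mup-ps16 inside that of Gm13775. Both pseudogenes are on the plus strand, as the models are, so strand would not separate their reads. The sources used here do not state whether the libraries kept strand. The part of pseudogene sequence, or of sequence shared with Mup genes, in the values of these models was not tested.

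The antisense-typed model Gm12909 lies 945 bases upstream of Mup3. It was at 4.93 FPKM in young liver and 6.52 FPKM in adult liver, and the authors' deposited table gave it a q-value of 0.610. Gm12909 and Mup3 are thus both not called. Gm12910, also typed antisense, was at 0.0760 and 0.0729 FPKM, and Gm21286 was at 0.102 and 0.169 FPKM, both under the minimum of 1 FPKM. Gm21286 is typed protein-coding in the table and is an unprocessed pseudogene in GENCODE M21. None of the 28 genes is typed pseudogene in the table. GENCODE M21 lists 28 pseudogenes in this window, of which Gm21286 is 1 with values here, and Mup22 of that annotation was not analysed here.

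The 2 other genes in the window were near 0. Slc46a2, a transporter gene known from thymus stroma, was listed at 0 FPKM at both ages. Zfp37, a zinc finger gene next to Mup21, was at 0.295 FPKM in young liver and 0.130 FPKM in adult liver, under the minimum.

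Genes on both sides of the window did not share the pattern of calls. Within 2 Mb on each side 31 genes were tested, of which 2 were risen, 2 fallen and 27 not called, with a median log2 fold of 0.01. The shares over all tested genes were 3.99% risen and 3.48% fallen. The nearest 3 on the left, Hsdl2, Inip and Snx30, were at 47.2 and 57.9, 2.75 and 2.53, and 1.26 and 1.42 FPKM in young liver and adult liver. The nearest 3 on the right, Slc31a2, Fkbp15 and the copper transporter gene Slc31a1, were at 5.14 and 5.60, 6.02 and 5.84, and 86.0 and 83.4 FPKM. None of these 6 was called. The 2 risen flank genes were Orm2 (20.4 and 57.1 FPKM) and Orm3 (1.43 and 3.09 FPKM), which encode orosomucoids, lipocalins of blood plasma, and the 2 fallen ones were Ptgr1 and Zfp618.

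Among lipocalin genes outside the locus 10 were tested, 3 risen and 2 fallen, with a median log2 fold of 0.13. Over all tested genes 3.99% were risen and 3.48% fallen. Lcn2, a carrier of bacterial siderophores, was at 17.3 FPKM in young liver and 46.5 FPKM in adult liver and risen, as were Orm2 and Orm3. Apom (317 and 207 FPKM) and Ptgds (1.70 and 0.379 FPKM) were fallen. The 2 highest, the retinol carrier gene Rbp4 (2626 and 2675 FPKM) and Ambp (1588 and 1500 FPKM), were not called. Among these genes, then, calls went in both directions.

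Of 26 tested genes for growth hormone signalling and for liver factors acting on sex-biased genes, 2 were fallen. Among all 11741 tested genes 3.48% were fallen, and the list as a set was not tested. Socs2, a feedback inhibitor of growth hormone signalling, was at 13.8 and 6.49 FPKM and fallen, and the estrogen receptor gene Esr1 was at 5.22 and 2.50 FPKM and fallen. Igf1 (548 and 500 FPKM) and Ghr, the growth hormone receptor gene (250 and 283 FPKM), the 2 highest of the list, were not called.

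Of 26 tested genes outside the locus that are known as male-biased in mouse liver, 13 were risen and 0 fallen (0 lower at an unadjusted p under 0.05 in the authors' Cuffdiff table), with a median log2 fold of 0.57. The risen ones were C4a, Moxd1, C9, C6, Hsd3b5, Susd4, Elovl3, Cyp7b1, Gstp1, Ugt2b38, Cyp4a12a, Cyp2d9 and Cyp4a12b. Cyp7b1, an oxysterol hydroxylase gene, had the largest fold, from 24.4 to 204 FPKM. The 2 highest, Serpina3k (7731 and 6962 FPKM) and Serpina1e (6654 and 7865 FPKM), were not called. Of 20 tested genes known as female-biased, 0 were risen and 17 fallen (0 higher at an unadjusted p under 0.05), with a median log2 fold of -2.01. For both lists, the shares over all tested genes were 3.99% risen and 3.48% fallen.

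The liver origin of the RNA was checked on marker genes. The hepatocyte markers Ttr (8081 and 5951 FPKM), Apoa1 (7868 and 6800 FPKM) and Ahsg (9035 and 4860 FPKM) were high at both ages, while Alb is listed at 0. The 6 hepatocyte markers summed to 26883 FPKM in young liver and 19240 FPKM in adult liver, with Ahsg fallen and 4 not called. Some markers of other cells were called too. Both erythroid markers were fallen, with sums of 910 and 286 FPKM, and both mesothelial markers, with sums of 9.18 and 2.42 FPKM. The 3 leukocyte markers summed to 3.78 FPKM in young liver and 8.19 FPKM in adult liver, with Ptprc risen, and of the Kupffer cell pair Marco was risen and Clec4f was not called. Krt7 and Krt19 of the 3 cholangiocyte markers were fallen, and the 3 summed to 4.23 and 1.41 FPKM. Neither endothelial marker and no stellate cell marker was called. The 2 kidney markers summed to 0.00832 FPKM in young liver and 0.00736 FPKM in adult liver, and of the 3 pancreas markers Prss2 and Amy2a5 are listed at 0, while Cela1 was at 21.9 FPKM in young liver and 20.9 FPKM in adult liver and was not called. The part of any of these cells in the Mup values was not tested.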

How the data were processed

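Liver RNA of 6 libraries was sequenced, 3 per age, each a pool of 3 mice, on an Illumina NextSeq 500 with a TruSeq RNA kit, per the labels' protocols. RNA with an integrity number of at least 8 was used. Reads were handled on GRCm38 with TopHat2 (2.0.11), Cufflinks (2.2.1) and Cuffdiff, tools that the submitters' processing notes list. The authors deposited 1 FPKM per gene and age, with their own p-value and q-value. A deposited log2 fold score column was not used. The labels give about 30000000 reads per library, the mapped reads behind each value are unknown, and the sources used here do not state the read length, the normalization or the annotation release.

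Tested genes had the authors' status OK and at least 1 FPKM at either age, and calls used the authors' q-value under 0.05. The authors' significance flag matched that limit in all 1111 genes it marked. Folds used a pseudocount of 1, which understates the change of low genes. A gene under 1 FPKM at 1 age passed only through the other. Every Mup gene, called or high models, other named genes, called or highest members of the comparison lists and the 3 nearest tested genes on each side were to be named, and female-biased genes are given as counts. A gene that the rule takes from a comparison list is not reported here. The members and lists were chosen with earlier results of these data known.

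All 28 gene identifiers were found in GENCODE M21, 26 with the same start and end. Coding sequences (1 transcript per gene, of the length nearest to the commonest, 540 bases) were aligned end to end with edlib 1.3.9.post1, in place of the planned protein comparison. Words of 75 bases from the same transcripts were compared with all transcripts of other genes. Promoters are from RefSeq (GRCm38.p6). Tables were computed with Python 3.11.15 and pandas 2.3.3, and the counting and sequence steps were tested on simulated data.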

Additional observations from a re-analysis of the deposited data

How the results depend on the processing

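The 19 members and 17 Mup genes risen, and the 0 fallen, were the same counts with the authors' q-value under 0.01 or under 0.1, with no FPKM minimum and with a minimum of 5 FPKM. All risen members had an authors' q-value of 0.00350 or less and an adult level of at least 6.199 FPKM. The lowest authors' q-value of the other members was 0.320. These settings therefore could not change the counts, and their sameness says nothing about stability. The median log2 fold of the tested Mup genes was 2.04, and ran from 1.68 with a pseudocount of 10 to 2.34 with one of 0.1. Equal totals outside the window, a factor of 1.03 on adult values, gave 2.07, and a median ratio of 1 outside it, a factor of 0.999, gave 2.04. Single-gene folds were recomputed under the same pseudocounts and factors, but a pseudocount cannot change a sign and these factors are close to 1, so this says little about their stability. Sums counted as moved when they changed by over 1.5 times. Without Mup3, the member with the highest adult FPKM, the log2 fold of the summed FPKM was 2.27 in place of 1.42, both for the window and for the Mup genes. Without Gm13775, that of the predicted models was 1.17 in place of 1.96. These shifts follow from the genes left out. A sum over Mup pseudogenes could not be computed, since none of the genes has that type. No paired analysis was possible because the table gives 1 combined value per age, and no library could be left out for the same reason. The labels give only a nominal number of reads per library, and without mapped counts no counting limit was computed for genes near 0.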
